A study of Mus musculus with 4 samples.

Results

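Interferon-stimulated genes (ISGs) were followed in mouse Neuro-2a (N2a) cells, a neuroblastoma line, in which the nuclear coactivator and splicing regulator Arglu1 was knocked down and the glucocorticoid receptor was activated. The 9 members, Cxcl10, Ifit1, Ifit3, Isg15, Irf7, Stat2, Dtx3l, Parp9 and Parp14, were picked by gene symbol from 22667 genes listed in the expression table. Earlier results of these data chose them: Dtx3l was known to be low after knockdown and Cxcl10 to be low after dexamethasone (Dex), so the values of these genes are descriptions and were not tested. Cells received a pool of non-targeting siRNAs (siControl) or, as the methods give it, 1 siRNA against Arglu1 (siArglu1) by lipid transfection for 48 h and then ethanol vehicle (Veh) or 100 nM Dex for 4 h. For each of the 4 groups, mRNA of 3 cultures was pooled into 1 library, so the spread between cultures was not measured and all intervals cover counting error only. Where 4 values follow each other, they run from siControl with vehicle and Dex to siArglu1 with vehicle and Dex. All libraries came from transfected cells. Whether double-stranded RNA or the lipid reagent moved these genes in every group therefore cannot be told apart from their resting level, and the loss of Arglu1 cannot be told apart from any other action of that siRNA, or from the use of a pool in siControl alone.

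Type I interferons are secreted when a cell senses foreign nucleic acid, which some siRNAs can mimic. They bind a receptor of the Ifnar1 and Ifnar2 chains, and the signal assembles a complex with Stat2 and Irf9 that binds the interferon-stimulated response element (ISRE) in the promoters of ISGs. Stat2 is thus both part of the signal and one of its targets, and Irf7, a transcription factor, drives further interferon genes. Among the effectors, Isg15 is a ubiquitin-like protein joined to other proteins, Ifit1 and Ifit3 act against viral RNA, Dtx3l is a ubiquitin ligase that works as a pair with Parp9, and Parp14 is an ADP-ribosyltransferase. Cxcl10 is a chemokine that attracts activated T cells and is also driven by NF-kB, a factor that glucocorticoids are known to restrain.

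The upstream sequences of 7 members were examined for matches to the ISRE. In a window from 250 bases before to 50 bases after the RefSeq start (GRCm38.p6), the ISRE core, GAAA followed after any 2 bases by GAAA, was searched on both strands. It stood in 5 of the 7 members with a window, and in 3.44% of all 32851 windows. The 250 bases before the start are printed 5′ to 3′ on the gene's strand, for the members with an ISRE match whose window held no annotated exon. Capitals mark matches to the ISRE and, in Cxcl10 alone, to the kappaB motif, GGGA followed after any 4 bases by CC. The windows are chr5:92348890-92349139 on the minus strand for Cxcl10, chr4:156200819-156201068 on the minus strand for Isg15, chr19:34583279-34583528 on the plus strand for Ifit3 and chr10:128270248-128270497 on the plus strand for Stat2.
Cxcl10: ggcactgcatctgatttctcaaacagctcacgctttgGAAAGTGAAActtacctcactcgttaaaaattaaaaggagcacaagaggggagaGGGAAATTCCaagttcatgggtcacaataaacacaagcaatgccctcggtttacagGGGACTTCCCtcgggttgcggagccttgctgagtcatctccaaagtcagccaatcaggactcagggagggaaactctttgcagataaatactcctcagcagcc
Isg15: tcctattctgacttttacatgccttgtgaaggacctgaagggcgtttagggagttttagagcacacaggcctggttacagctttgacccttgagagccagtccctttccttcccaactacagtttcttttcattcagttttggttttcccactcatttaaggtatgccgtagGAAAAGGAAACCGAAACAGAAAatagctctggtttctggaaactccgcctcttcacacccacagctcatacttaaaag
Ifit3: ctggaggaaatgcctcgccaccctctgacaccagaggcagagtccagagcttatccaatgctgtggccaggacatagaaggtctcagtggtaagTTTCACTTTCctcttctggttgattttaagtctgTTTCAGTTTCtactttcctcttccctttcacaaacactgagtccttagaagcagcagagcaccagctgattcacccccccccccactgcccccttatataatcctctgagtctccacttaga
Stat2: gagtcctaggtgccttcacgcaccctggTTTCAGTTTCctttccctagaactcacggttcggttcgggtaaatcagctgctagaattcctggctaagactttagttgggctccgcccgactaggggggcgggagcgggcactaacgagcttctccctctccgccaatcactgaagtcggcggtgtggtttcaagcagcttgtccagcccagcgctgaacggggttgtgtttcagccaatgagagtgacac

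Cxcl10 held GAAAGTGAAA, which began 213 bases before the start, and a pair of kappaB matches nearer to it, at 159 and 103 bases. Isg15 held 3 ISRE matches that overlap each other in 1 run, with the first at 78 bases. Ifit3 held TTTCACTTTC and TTTCAGTTTC, the element on the other strand, at 156 and 122 bases, and Ifit1 held the same letters at 104 and 85 bases. Stat2 held TTTCAGTTTC at 222 bases. The windows of Irf7 and Dtx3l held no match to this core, and Parp9 and Parp14 were not searched. The ISRE stood in 24 of 64 other listed ISGs with a window, counted by gene. Shares of all are counted by window instead, over 32851 windows of 27025 genes. The GAS motif (TTC and GAA with 3 bases between), also searched, matched 0 of the 7 member windows, 15 of the 64 other listed ISGs and 8.3% of all windows. The kappaB motif matched 1 of the 7 member windows, 20 of the 64 other listed ISGs and 20.7% of all windows. The glucocorticoid response element (GNACA and TGTNC with 3 bases between) matched 0 of 7, 0 of the 64 and 0.475% of all windows. These are matches of letters and were not compared with binding.

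The libraries held 66074574 to 86541444 reads on genes. Arglu1 had 10165 (Veh) and 11825 (Dex) reads with siControl, against 2637 (Veh) and 3254 (Dex) with siArglu1, or 26.4% and 22.5% of the matched siControl level. Of 12 neuroblast markers, 11 had at least 100 reads in every library. Their summed level was 2920 and 2960 CPM (reads on genes scaled to a common library total) in siControl and 3970 and 3920 in siArglu1, but single markers differed in both directions. Of the enzymes of catecholamine synthesis, Dbh had log2 knockdown ratios of 2.0 in vehicle and 2.01 in Dex, and Th had -1.26 and -0.90. Of the transcription factors, Gata3 had 1.16 and 1.54, and Phox2a had 1.17 and 1.02. The part of these marker differences in the results for ISGs was not tested. None of 11 macrophage and lymphocyte markers reached 100 reads in any library, and their sum was 0.736 to 0.969 CPM. Log2 ratios were also related to mappable gene length, with Spearman's rho across 12484 genes of -0.398 for knockdown in vehicle, -0.229 for knockdown in Dex, -0.163 for Dex in siControl and 0.543 for Dex in siArglu1. Ratios with this trend removed are given beside some of the members.

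Levels per length are given as cRPKM, reads scaled to library depth and mappable gene length. Stat2 and Isg15 were the most abundant members in every library. In siControl Veh, Stat2 stood at 11.69 cRPKM, near the middle of the genes compared (percentile 51.5), and Isg15 at 7.74. Parp9 followed at 5.07 and Dtx3l at 2.97. The other members stood below 1 cRPKM in siControl Veh, with Cxcl10 at 0.84, Ifit1 at 0.63, Irf7 at 0.22, Parp14 at 0.11 and Ifit3 at 0.05. In siArglu1 Veh, Cxcl10 at 1.38 cRPKM held place 3, ahead of Parp9 at 1.23, and Dtx3l held place 6 at 0.35. Cxcl10 and Parp9 had near-equal levels there, and Ifit1, at 0.38 cRPKM, was close to Dtx3l. The median over the 9 members was 0.84 cRPKM in siControl Veh and 0.38 in siArglu1 Veh. With Dex it was 0.47 in siControl and 0.42 in siArglu1. The middle gene was Cxcl10 in siControl Veh and Ifit1 in siArglu1 Veh, so this median does not follow the same gene.

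**Figure D1:**
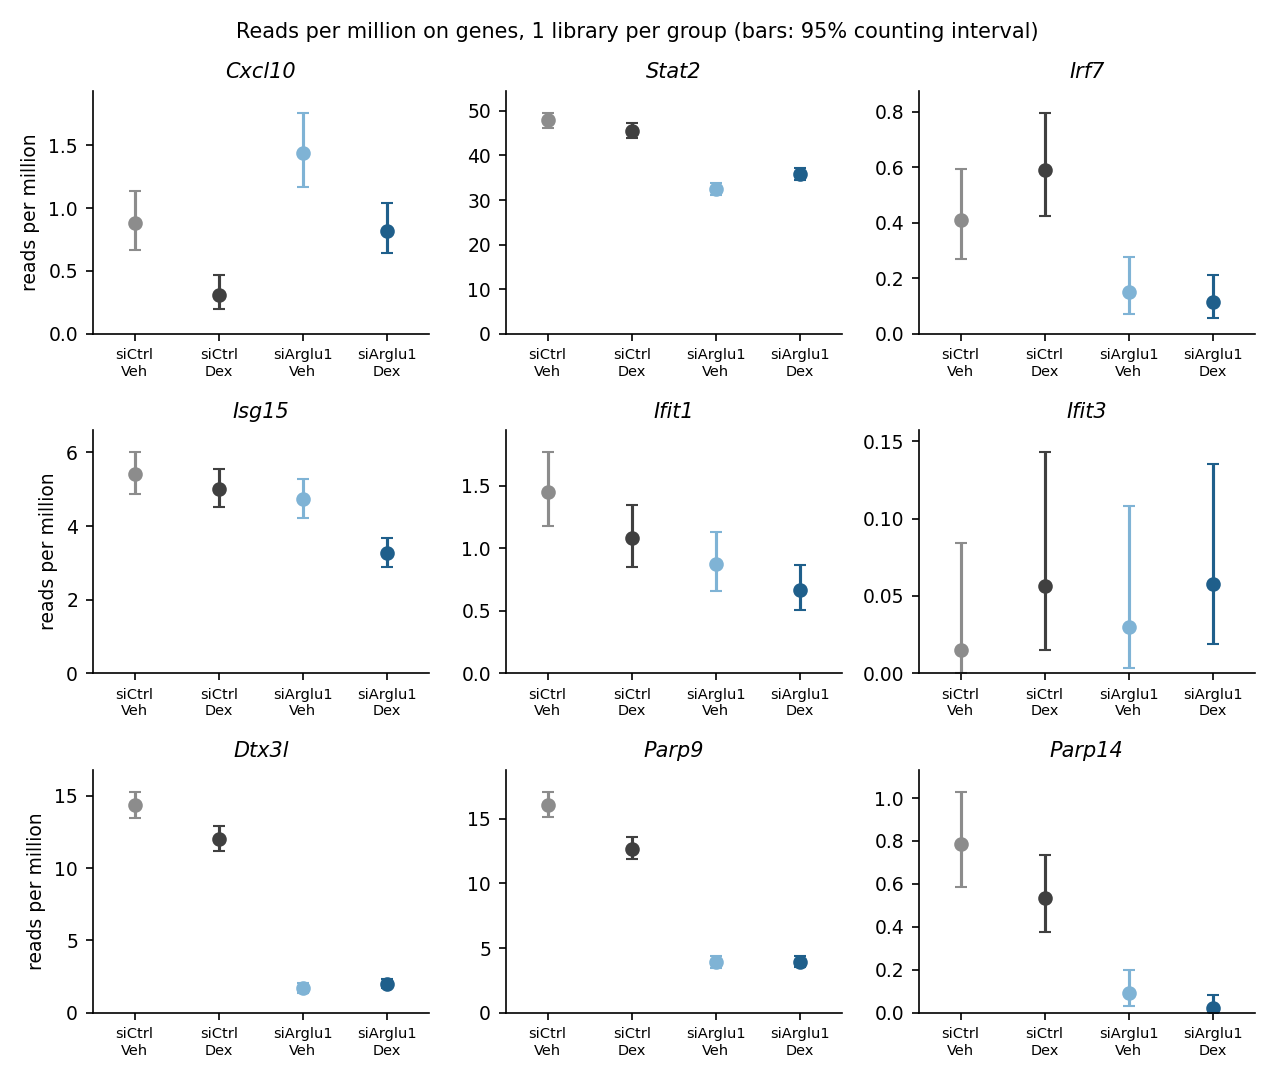
CPM (linear axes from 0) for each of the 9 members in siControl (siCtrl) and siArglu1 cells with vehicle (Veh) or Dex. Points are single libraries and bars are exact 95% Poisson intervals. Dtx3l, Parp9 and Parp14 are low in both siArglu1 libraries, Stat2 and Ifit1 are lower there by less, and Cxcl10 is lowest in siControl Dex, at 22 reads.

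The knockdown comparison asked how these genes stood when Arglu1 was depleted, first in vehicle and then in Dex, in pairs of libraries that share none. A log2 ratio of 0.81 either way was taken as the size to count. Of the 8 members that passed the minimum of 75 reads over all libraries, 4 were lower by this size in both pairs, Irf7, Dtx3l, Parp9 and Parp14. The background was 5.07% of 12497 genes lower in both pairs, and the knockdown values of Dtx3l were part of the choice of members, so nothing is read from this count. Within the vehicle pair 4 members were lower (background 8.77%) and 0 higher (background 7.0%). Within the Dex pair 4 were lower (background 5.93%) and 1, Cxcl10, was higher (background 6.19%). The median log2 ratio of the 8 members was -1.02 in vehicle and -1.20 in Dex, where the median of all genes was 0.00 in both.

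Dtx3l (ENSMUSG00000049502), the ubiquitin ligase of the pair, had 949 (Veh) and 857 (Dex) reads with siControl, against 112 (Veh) and 174 (Dex) with siArglu1. Both siArglu1 libraries were far below both siControl libraries. In RNA from whole cultures, fewer expressing cells and less RNA per cell cannot be told apart. Its level after knockdown was 12.1% of siControl in vehicle, a log2 ratio of -3.05 (95% interval -3.36 to -2.78), while the Dex pair stood at 16.7%, or -2.58 (-2.83 to -2.35). In each pair Dtx3l held place 12 from the lowest of 12497 genes. With the length trend removed the ratios were -2.81 in vehicle and -2.47 in Dex.

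Parp9 (ENSMUSG00000022906), the partner of Dtx3l, had 1064 (Veh) and 908 (Dex) reads with siControl, against 260 (Veh) and 339 (Dex) with siArglu1. Both siArglu1 libraries were below both siControl libraries, with a smaller gap than for Dtx3l. The log2 ratio was -2.01 (-2.21 to -1.81) in vehicle and -1.71 (-1.89 to -1.53) in Dex, or 24.9% and 30.6% of siControl. Both genes overlap at their 5′ ends on opposite strands in the mouse annotation, and the library kit does not keep strand, so reads in the overlap cannot be told apart between them.

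Parp14 (ENSMUSG00000034422) was scarce, with 52 (Veh) and 38 (Dex) reads with siControl, against 6 (Veh) and 2 (Dex) with siArglu1. Its log2 ratio was -2.92 (-4.60 to -1.87) in vehicle and -3.90 (-7.63 to -2.58) in Dex. The size of this difference rests on the 6 and 2 reads left after knockdown. On cRPKM as deposited, rounded to 2 decimals and with a pseudocount of 0.05, the ratios were -1.42 and -1.26. With the length trend removed the ratios were -2.49 in vehicle and -3.68 in Dex.

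Parp14, Dtx3l and Parp9 lie next to each other on chromosome 16, apart from 2 pseudogenes between Parp14 and Dtx3l in RefSeq order. The measured genes around the cluster did not share its ratios. Kpna1, an importin next to Parp9 except for a long non-coding RNA, had 7926 (Veh) and 8525 (Dex) reads with siControl, against 7620 (Veh) and 10672 (Dex) with siArglu1, with knockdown ratios of -0.03 (-0.08 to 0.01) and 0.04 (-0.01 to 0.08). On the Parp14 side, Hspbap1 had ratios of 0.25 and 0.22 and Slc49a4, listed as Dirc2, had -0.18 and -0.28. Beyond Kpna1, Wdr5b had 0.35 and 0.51, Fam162a 0.04 and -0.35, and Ccdc58 0.47 and 0.13. Sema5b had 5 or 6 reads in each library and was not compared.

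**Figure D2:**
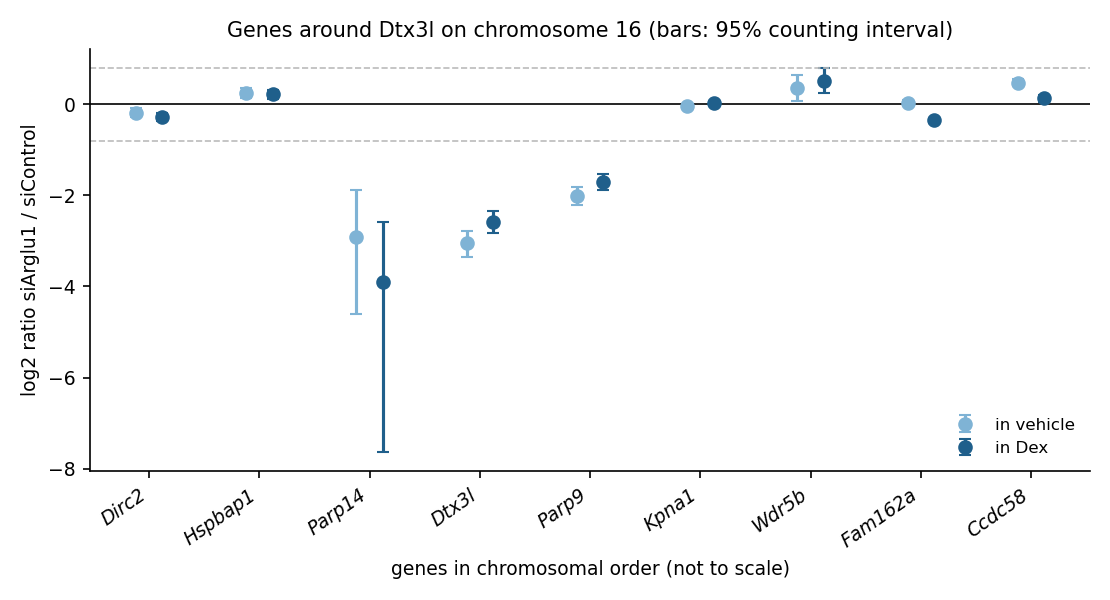
Log2 ratio of siArglu1 over siControl in vehicle (light) and Dex (dark) for the genes around Dtx3l in chromosomal order, with exact 95% counting intervals. Parp14, Dtx3l and Parp9 lie between -1.71 and -3.90, and the 6 measured neighbours stay within the dashed lines at 0.81 either way.

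Irf7 (ENSMUSG00000025498), the transcription factor for interferon genes, had 27 (Veh) and 42 (Dex) reads with siControl, against 10 (Veh) and 10 (Dex) with siArglu1. Both siArglu1 libraries were below both siControl libraries. The log2 ratio was -1.33 (-2.62 to -0.32) in vehicle and -2.23 (-3.52 to -1.34) in Dex, with wide intervals from few reads.

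Stat2 (ENSMUSG00000040033), the signal transducer, had 3164 (Veh) and 3244 (Dex) reads with siControl, against 2166 (Veh) and 3098 (Dex) with siArglu1, the last in the deepest library. Its log2 ratios of -0.52 (-0.60 to -0.45) in vehicle and -0.36 (-0.43 to -0.28) in Dex were short of the size and had intervals below 0. With the length trend removed they were -0.36 and -0.28.

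Ifit1 (ENSMUSG00000034459), which binds viral RNA, had 96 (Veh) and 77 (Dex) reads with siControl, against 58 (Veh) and 58 (Dex) with siArglu1. Its ratios of -0.70 (-1.20 to -0.22) and -0.69 (-1.21 to -0.19) were alike in vehicle and Dex and short of the size. Ifit genes are close paralogs, so reads shared between them make these values uncertain. Ifit3 (ENSMUSG00000074896) had 1 (Veh) and 4 (Dex) reads with siControl, against 2 (Veh) and 5 (Dex) with siArglu1, near the limit of 3 reads that a count of 0 would allow, and no ratio is given.

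Isg15 (ENSMUSG00000035692) had 358 (Veh) and 357 (Dex) reads with siControl, against 315 (Veh) and 283 (Dex) with siArglu1. In vehicle the ratio was -0.16 (-0.39 to 0.06), which includes 0, whereas the Dex pair gave -0.62 (-0.85 to -0.39). Isg15 has one of the shortest mappable lengths (percentile 5.12), and with the length trend removed the vehicle ratio was -0.50.

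Cxcl10 (ENSMUSG00000034855) was the 1 member of the 8 compared that was above siControl after knockdown. It had 58 (Veh) and 22 (Dex) reads with siControl, against 96 (Veh) and 71 (Dex) with siArglu1. The ratio was 0.74 (0.26 to 1.25) in vehicle, short of the size, and 1.36 (0.69 to 2.16) in Dex. With the length trend removed these were 0.46 and 1.22.

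**Figure D3:**
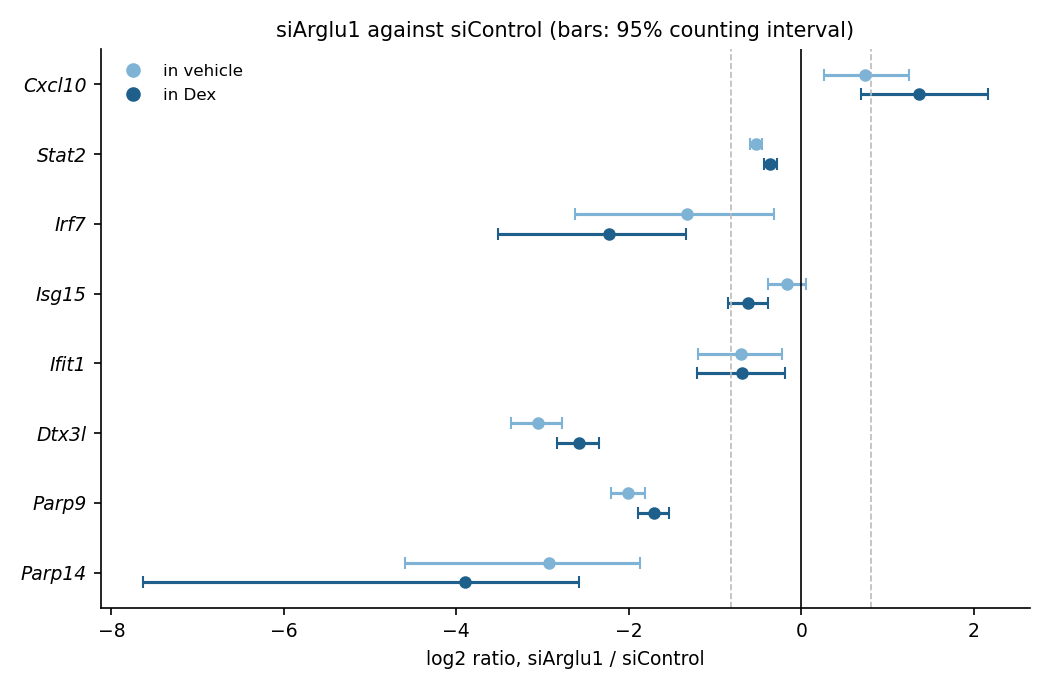
Log2 ratio of siArglu1 over siControl for the 8 members compared, in vehicle (light) and in Dex (dark). Bars are exact 95% counting intervals from 1 library per group and dashed lines mark 0.81 either way. Dtx3l, Parp9, Parp14 and Irf7 lie past the lower line in both pairs, and Cxcl10 lies to the right of 0.

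The wider class was taken from a list of 79 other ISGs, of which 77 were in the table and 60 passed the minimum. The list was drawn up with earlier results of these data known. In vehicle, 22 of the 60 (36.7%) were lower by the size and 2 higher, and the median ratio was -0.59. In Dex, 20 (33.3%) were lower and 1 higher, with a median of -0.57. Lower in both pairs were 18 genes, 30.0% of the 60, beside the 5.07% of all genes, and 1 was higher in both, beside 4.83%. Of the 22 genes lower in vehicle, 22 were also below 0 in Dex, as were 1084 of the 1096 genes lower in vehicle over all genes. An additive quasi-likelihood model in edgeR, which assumes an equal knockdown effect in vehicle and Dex and has 1 residual degree of freedom, called 35 of the 60 lower and 4 higher at a Benjamini-Hochberg adjusted p under 0.05. Of all genes it called 30.9% lower and 30.8% higher. Each group was 1 pooled library, so the p of this model does not cover the spread between cultures.

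The genes with the largest differences among those lower in both pairs included Psmb8, Mx2, Rsad2 and Gbp7. Psmb8, an immunoproteasome subunit, had 2042 (Veh) and 2011 (Dex) reads with siControl, against 541 (Veh) and 610 (Dex) with siArglu1, with ratios of -1.89 (-2.03 to -1.76) in vehicle and -2.01 (-2.14 to -1.88) in Dex. Mx2, an antiviral GTPase, had 462, 477, 130 and 161 reads in the same order and ratios of -1.80 and -1.85. Rsad2, the radical-SAM enzyme viperin, had 168, 172, 48 and 37 reads and ratios of -1.77 and -2.47. In these genes the siControl libraries were close to each other and the siArglu1 libraries stood well below. Gbp7, a guanylate-binding protein, had 43, 37, 12 and 17 reads and ratios of -1.74 and -1.35. In the opposite direction, Ifitm3, a membrane protein that blocks virus entry, had 103, 83, 205 and 282 reads and ratios of 1.01 (0.67 to 1.37) and 1.46 (1.12 to 1.85). The second gene higher in vehicle, Ifitm2, had ratios of 0.87 and 0.63, and was named after its values were seen. With the length trend removed, 0 of the 60 were higher in vehicle, so neither Ifitm gene passed the size there. Ifitm genes are close paralogs, so their split of reads is uncertain.

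**Figure D4:**
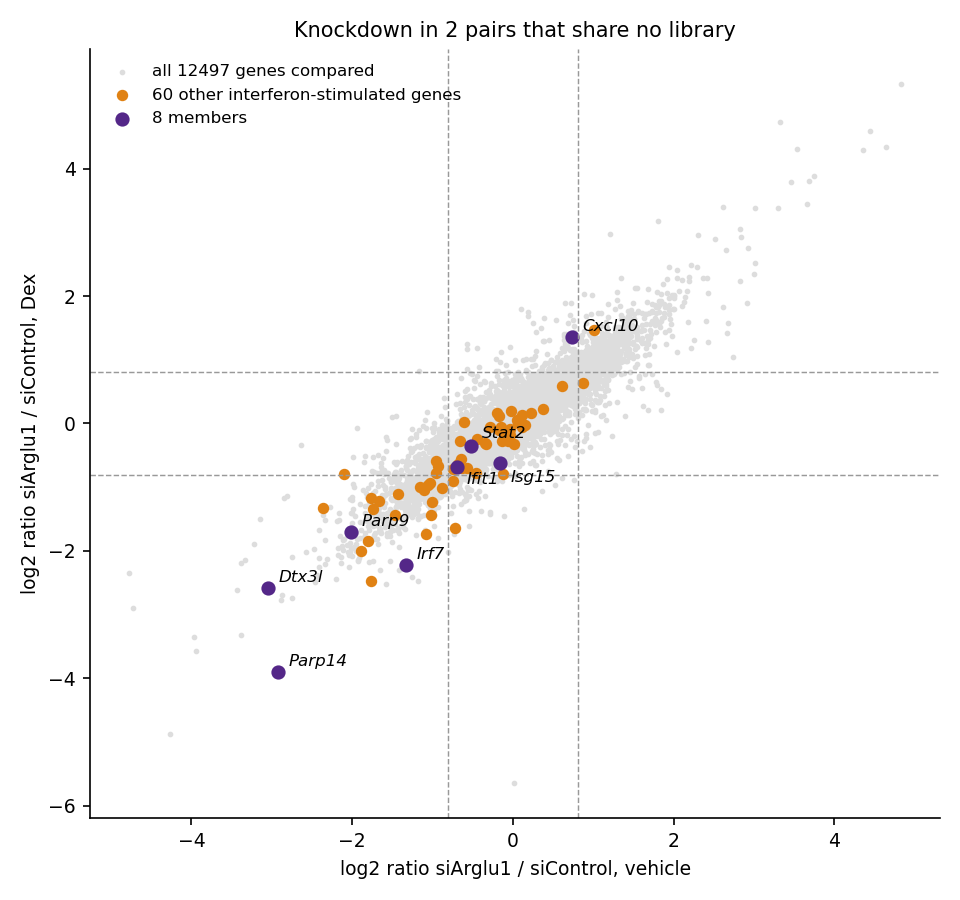
Log2 ratio of siArglu1 over siControl in vehicle (horizontal) and in Dex (vertical), which share no library, for 12497 genes (grey), 60 other ISGs (orange) and 8 members (purple). Dashed lines mark 0.81 either way. The orange points extend to the lower left, where 18 of the 60 lie past the size in both pairs, with 1 at the upper right beside Cxcl10.

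The relatives of Dtx3l, Parp9 and Parp14 were listed as 21 other ADP-ribosyltransferases and deltex ligases, all of which passed the minimum. In vehicle 4 of the 21 were lower, beside 8.77% of all genes, and 0 higher. In Dex 2 (9.52%) were lower, beside 5.93%, and 0 higher. The median ratio was -0.35 in vehicle and -0.21 in Dex. Lower in both pairs were Parp12, with 1062 (Veh) and 1048 (Dex) reads with siControl, against 377 (Veh) and 474 (Dex) with siArglu1, and ratios of -1.47 and -1.43, and Parp10, with 2402, 2583, 1096 and 1523 reads and ratios of -1.11 and -1.05. Both are interferon-responsive and stand in the ISG list too.

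Upstream of these genes, the signal itself was read from its ligands, receptors and factors. Of the interferon genes looked up by symbol, 6 were found, Ifnb1, Ifna2, Ifna4, Ifng, Ifnl2 and Ifnl3, and Ifna1 was not. All 6 had 0 reads in all 4 libraries, which allows up to 3 reads in each, or 0.0347 to 0.0454 CPM. Other interferon genes were not looked up. Transcripts of these 6 genes were thus not detectable at this depth in any group. Both chains of the type I receptor were present. Ifnar1 had 3832 (Veh) and 4011 (Dex) reads with siControl, against 3333 (Veh) and 4358 (Dex) with siArglu1, and knockdown ratios of -0.18 and -0.17, and Ifnar2 had 1683, 1807, 1902 and 2245 reads and ratios of 0.20 and 0.02. Irf9 had 834, 854, 599 and 884 reads and ratios of -0.45 and -0.24. Irf9 and Stat2 were therefore both below siControl in both pairs, each short of the size. Of 16 genes compared in the list of interferons, receptors and JAK-STAT genes, 1 was lower by the size in each pair, Usp18, and 0 were higher. That is 6.25% lower, near the 8.77% of all genes in vehicle and 5.93% in Dex. The median was -0.08 in both pairs. Usp18, which removes Isg15 from proteins and damps the receptor, had 119, 339, 55 and 124 reads and ratios of -1.08 (-1.58 to -0.62) and -1.73 (-2.05 to -1.44).

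Nucleic acid sensors bear on the question of a response to transfected RNA. Of 17 sensors and adaptors compared, 3 were lower and 1 higher by the size in vehicle, and 0 either way in Dex, with medians of -0.02 and -0.04. In vehicle these were 17.6% lower and 5.88% higher, beside 8.77% and 7.0% of all genes. Ifih1, the sensor MDA5, had 86 (Veh) and 46 (Dex) reads with siControl, against 19 (Veh) and 32 (Dex) with siArglu1, and knockdown ratios of -2.10 (-2.96 to -1.43) and -0.79. Ddx58, the sensor RIG-I, had 228, 218, 116 and 177 reads and ratios of -0.95 (-1.29 to -0.62) and -0.59. Both sensors are themselves ISGs and had fewer reads after knockdown. Eif2ak2, the kinase PKR that double-stranded RNA activates, had 1694, 1599, 1641 and 2222 reads and ratios of -0.02 (-0.12 to 0.08) and 0.19. Tlr3, an endosomal receptor for double-stranded RNA, was scarce and the 1 higher, with 16, 22, 37 and 44 reads and ratios of 1.19 (0.35 to 2.18) and 0.69. The third lower gene, Irf5, had ratios of -1.11 and -0.68, and was named after its values were seen.

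Cxcl10 was set beside a list of 20 NF-kB and inflammatory genes, of which 10 passed the minimum. In each knockdown pair 1 was lower, Nfkb1, the p50 precursor, and 1 higher. Each is 10.0% of the list, near the shares of all genes (8.77% lower and 7.0% higher in vehicle, 5.93% and 6.19% in Dex). Nfkb1 had 5500 (Veh) and 6668 (Dex) reads with siControl, against 2925 (Veh) and 4285 (Dex) with siArglu1, and ratios of -0.89 and -0.93. The higher genes, named after their values were seen, were Cxcl1, a neutrophil chemokine, in vehicle (62, 93, 160 and 198 reads, ratios of 1.38 and 0.79) and Birc3, an inhibitor of apoptosis, in Dex (54, 49, 74 and 121 reads, ratios of 0.47 and 1.0).

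The second comparison asked how Dex moved these genes with and without Arglu1, at a size of 1 on the log2 scale. In siControl cells 1 member was lower, Cxcl10 (background 0.144%), and 0 were higher (background 0.32%). In siArglu1 cells 1 member was lower, Parp14 (background 0.064%), and 0 higher (background 0.328%). The medians were -0.29 and -0.39. Cxcl10 was chosen for its response to Dex, so its values are a description. It went from 58 to 22 reads in siControl, a log2 ratio of -1.46 (-2.28 to -0.77) and place 3 from the lowest of 12497 genes. In siArglu1 it went from 96 to 71 reads in a deeper library, a ratio of -0.84 (-1.31 to -0.39), short of the size and at place 22. With the length trend removed the siArglu1 ratio was -0.69. The difference of both ratios, siArglu1 minus siControl, was 0.65 (-0.23 to 1.56), an interval that includes 0 and is given as a description.

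Among the other members, Parp14 went from 6 to 2 reads in siArglu1, a ratio of -1.52 whose interval of -5.34 to 0.49 includes 0, and from 52 to 38 in siControl, a ratio of -0.54 (-1.20 to 0.08). Dtx3l had ratios of -0.25 (-0.38 to -0.11) in siControl and 0.22 (-0.13 to 0.58) in siArglu1, a difference of 0.47 (0.09 to 0.85). Parp9 had -0.33 (-0.46 to -0.20) and -0.03 (-0.27 to 0.21), a difference of 0.30 (0.03 to 0.57). Both partners had intervals below 0 in siControl and intervals that include 0 in siArglu1. Isg15 had -0.10 (-0.32 to 0.11) in siControl and -0.56 (-0.80 to -0.33) in siArglu1, a difference of -0.46 (-0.78 to -0.14), and its siArglu1 ratio was -0.39 with the length trend removed. Stat2 had -0.06 (-0.13 to 0.01) and 0.11 (0.03 to 0.19), a difference of 0.17 (0.06 to 0.28). With the length trend removed, the siArglu1 ratio of Stat2 was 0.04 and that of Dtx3l 0.13. Ifit1 had -0.41 (-0.87 to 0.03) and -0.40 (-0.96 to 0.14), with a difference of 0.01 (-0.71 to 0.73). Irf7 had 0.52 (-0.19 to 1.29) and -0.37 (-1.83 to 1.01), and both intervals include 0. The differences of Irf7, -0.94 (-2.57 to 0.68), and of Parp14, -1.43 (-4.85 to 1.15), had intervals that include 0.

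**Figure D5:**
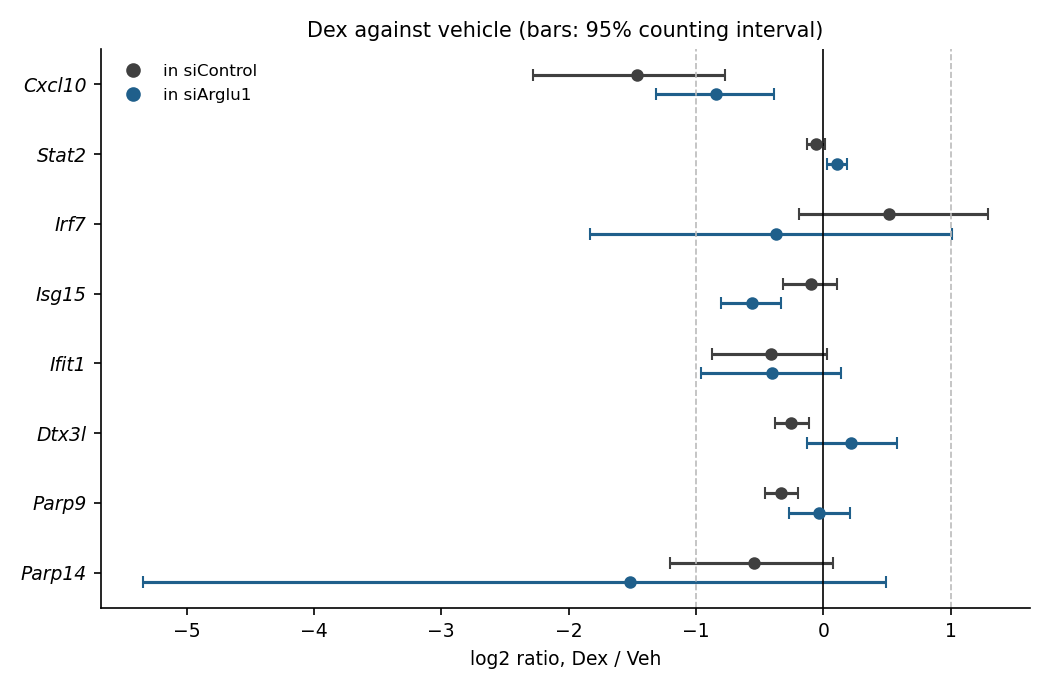
Log2 ratio of Dex over vehicle for the 8 members compared, in siControl (grey) and siArglu1 (blue) cells. Bars are exact 95% counting intervals from 1 library per group and dashed lines mark 1 either way. Cxcl10 lies left of 0 in both, at -1.46 and -0.84, and the interval of Parp14 in siArglu1 spans 0.

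Of the 60 other ISGs, 1 (1.67%) passed the size in each Dex pair. In siControl 0 were lower (background 0.144%) and 1 higher (background 0.32%), Usp18, with a ratio of 1.40 (1.11 to 1.72). In siArglu1 1 was lower (background 0.064%) and 0 were higher (background 0.328%). The lower gene was Mx1, an antiviral GTPase, from 35 to 22 reads with a ratio of -1.04 (-1.92 to -0.27). Usp18 had 0.75 (0.29 to 1.25) in siArglu1. The medians were -0.07 and -0.04. The additive edgeR model called 0 of the 60 lower and 1 higher with Dex, where it called 0.048% of all genes lower and 0.992% higher. Of the NF-kB list, the sensors and the ADP-ribosyltransferase list, 0 genes passed the size in either Dex pair, with Ifih1 at -0.99 in siControl. With 0.064% to 0.328% of all genes past the size in a direction, nothing is read from 0 in lists this short.

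Genes with patterns most like 2 members were ranked by the Euclidean distance of 4 centred log2 values, 1 for each library. Nearest to Dtx3l were Vwa5b1 at 0.19, Usp43 at 0.20, Grap2 at 0.25, Alpk3 at 0.37 and Tle6 at 0.43, and none of these is in the ISG list. Vwa5b1 had 6615 (Veh) and 7204 (Dex) reads with siControl, against 886 (Veh) and 1362 (Dex) with siArglu1. Alpk3 had only 51, 37, 4 and 9 reads. Parp9 held place 57 at a distance of 0.98, Irf7 place 114 at 1.24 and Parp14 place 172 at 1.38. Nearest to Cxcl10 were Hunk at 0.24, Ccdc89 at 0.40, Fgl1 at 0.45, Apol7d at 0.50 and Gm6880 at 0.59. These genes had few reads, with 18, 6, 36 and 23 for Hunk and 39, 21, 77 and 67 for Ccdc89. Their distances are therefore uncertain from counting error.

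Splicing was read from the percent spliced in (PSI), the share of transcripts that include a stretch. Of 28 listed events in members, 12 had enough coverage to compare, and all 12 were in Stat2. With a change of at least 15 PSI as the size, 0 of the 12 were called in any comparison, beside 1.96% of 57183 events for knockdown in vehicle, 1.52% for knockdown in Dex, 0.717% for Dex in siControl and 0.948% for Dex in siArglu1. The largest changes were 4.77, 9.52, 4.97 and 8.33 PSI in that order. The 90-base Stat2 exon at chr10:127714700-127714789 (mm9) had a PSI of 93.77 (Veh) and 94.62 (Dex) with siControl and of 89.0 (Veh) and 94.18 (Dex) with siArglu1. The 3 Dtx3l and 7 Parp9 events, on chromosome 16, had too few junction reads in the siArglu1 libraries. A Dtx3l exon of 251 bases at chr16:35936463-35936713 (mm9), for example, was at a PSI of 100.0 in both siControl libraries and lacked coverage in siArglu1.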

How the data were processed

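The authors sequenced polyA RNA from unstranded TruSeq V2 libraries, and the submitters' processing notes name Bowtie and mm9, with no versions. The deposited gene table holds raw read counts and cRPKM (RPKM corrected for mappable length) by the authors, and the splicing tables hold percent spliced in with coverage scores. Columns of the authors' own Dex over Veh ratios were not used. For the gene annotation, the sources used here name none.

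Counts were scaled by TMM (edgeR 4.0.16, R 4.3.3) with a prior count of 1, for 12497 genes with at least 75 reads summed over 4 libraries. With 1 library per group, neither knockdown nor Dex could be tested within a pair. An additive edgeR quasi-likelihood model over the 4 libraries, with 1 residual degree of freedom, was used as an alternative for the other ISGs, and the members were not tested. The p of that model does not cover the spread between cultures. Genes were counted past a log2 ratio of 0.81 for knockdown, a size used by the study, or 1 for Dex. Exact conditional 95% intervals for ratios and exact Poisson intervals for reads cover counting error only. Splicing events needed a coverage score in at least 3 libraries. The size rule for knockdown in vehicle and for Dex in siControl, the additive model and the exact interval of a ratio were tried on simulated data. The other steps were not.

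Named genes were all members, up to 5 genes per list, direction and factor past the size in both pairs (those with the largest smaller ratio), the interferon genes, Irf9, Ifnar1, Ifnar2, Ifih1, Ddx58, Eif2ak2 and Tlr3, the 5 neighbours on either side of the chromosome 16 members, and the 5 nearest patterns. A further gene of this rule is not reported here. The members and lists were chosen with earlier results of these data known, and the lists overlap. Alternatives were DESeq2 1.42.0 size factors, total reads, cRPKM, other minimums, prior counts and sizes, removal of the length trend, and an additive edgeR model.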

Additional observations from a re-analysis of the deposited data

How the results depend on the processing

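No member ratio changed sign past its size under any alternative, and 155 member ratios stayed within the counting interval. The 5 that did not were Isg15 and Stat2 without the length trend and Parp14 on cRPKM, given above. No paired analysis was possible because each group holds 1 library. Counts of genes past the size moved as follows. At a size of 0.58, 1 member was higher for knockdown in vehicle and 2 were lower for Dex in siArglu1, and of the other ISGs 3 were higher for knockdown in Dex, 2 lower for Dex in siControl, and 2 lower and 1 higher for Dex in siArglu1. At a size of 1.5, 0 members were higher for knockdown in Dex and 0 lower for Dex in siControl, and of the other ISGs 8 were lower and 0 higher for knockdown in vehicle, 5 lower and 0 higher for knockdown in Dex, 0 higher for Dex in siControl and 0 lower for Dex in siArglu1. With no minimum on reads, 1 member, Ifit3, was higher for Dex in siControl, and of the other ISGs 5 were higher for knockdown in vehicle, 4 for knockdown in Dex and 4 for Dex in siControl, and 4 were lower and 2 higher for Dex in siArglu1, against 3 lower at a minimum of 20 reads. For Dex in siArglu1, on cRPKM or with a prior count of 5, 0 members and 0 other ISGs were lower. With the length trend removed 0 other ISGs were higher for knockdown in vehicle and 0 lower for Dex in siArglu1. The additive edgeR model, 1 fit for both pairs, called 35 other ISGs lower and 4 higher for knockdown, and 0 lower and 1 higher for Dex. The smaller counts at 1.5 and larger ones at 0.58 follow from the size itself, and for the other settings the cause was not tested. Depth limits Ifit3, Irf7 and Parp14, with at most 52 reads in a library. It also limits Cxcl10, with 22 reads in siControl Dex and at most 96 in a library.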
